A study of Musca domestica with 24 samples.

Results

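The genes described here encode 3 subunits of the chaperonin CCT in the house fly, *Musca domestica*. They are CCT-delta, CCT-eta and CCT-zeta, chosen by symbol as the rows of the deposited count tables that carry a CCT name, and they are 3 of the 16540 genes in each table. The rule for members uses the symbol alone. CCT, also called TRiC, is the chaperonin of the eukaryotic cytosol, a barrel of stacked rings in which each position is held by a different, related subunit. It uses ATP to fold newly made proteins, and tubulin and actin are its best known clients. Both are in heavy demand in a fly testis, where each spermatid builds a long flagellum around a microtubule axoneme, and in the neurons and muscles of the head. The 3 genes do not stand for alternative chaperones, because the complex needs each of its subunits.

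The study measured polyA RNA from testes and heads of 2 strains, CSrab and IsoCS, that the submitters describe as isogenic except for the proto-Y chromosome, a young Y chromosome that carries the male determiner. Flies developed at 29 °C or 18 °C. The 8 groups, with 3 biological replicates each, were CSrab testes at 29 °C, CSrab testes at 18 °C, IsoCS testes at 29 °C, IsoCS testes at 18 °C, CSrab heads at 29 °C, CSrab heads at 18 °C, IsoCS heads at 29 °C and IsoCS heads at 18 °C. The labels do not state which proto-Y each strain carries, the age of the flies, the sex of the head donors, or how many flies went into a sample. Each group is a single strain, so a strain difference below is a difference between these strains and is not tied to a locus.

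Library totals were 14916846 to 40005841 counts in testis and 15690817 to 35694337 counts in head. The subunits were counted deeply throughout, with 1235 to 9786 counts for CCT-delta, 2429 to 7641 for CCT-eta and 1850 to 11288 for CCT-zeta in the 24 libraries. All 3 passed the filter on low counts in every fit. No pair of replicates looked like the same library deposited again: over 24 pairs the lowest chi-square per degree of freedom was 27.5. Of 4 neuronal genes picked by symbol, 3 were lower in testis than in head: the neuropeptide gene pdf (log2 -7.90 ± 0.35 SE, edgeR adjusted p = 5.04e-14), the GABA receptor gene MdRdl (-3.86 ± 0.294, edgeR adjusted p = 2.38e-10) and the sodium channel gene para-like (-0.70 ± 0.216, edgeR adjusted p = 0.00547). The acetylcholine receptor subunit gene nAChRbeta3 averaged 80.6 ± 37.0 CPM in testis and 83.8 ± 12.2 CPM in head (SD, n = 12 each) and did not pass (-0.14 ± 0.094, edgeR adjusted p = 0.164). In this contrast 87.2% of the 14334 genes tested were called, and 45.9% were called higher in testis. Levels are given as CPM, the usual library-size-scaled count, after scaling the 24 libraries together with TMM, a method that assumes most genes are not changed. The share of genes called between tissues does not meet that assumption, so the sizes of testis-to-head differences depend on the scaling. CPM is not corrected for transcript length, so it is compared between groups for one gene and not between genes. In these bulk samples fewer cells of a type and less RNA per cell cannot be told apart.

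All 3 subunits were higher in testis than in head, but to unequal degrees. CCT-delta averaged 335 ± 75.3 CPM in testis and 86.2 ± 12.5 CPM in head (SD, n = 12 each). CCT-zeta averaged 295 ± 41.3 CPM in testis and 125 ± 22.1 CPM in head. CCT-eta averaged 207 ± 23.2 CPM in testis and 164 ± 26.8 CPM in head, and its ranges in the tissues overlapped. The plot of levels by group shows every library.

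**Figure D1:**
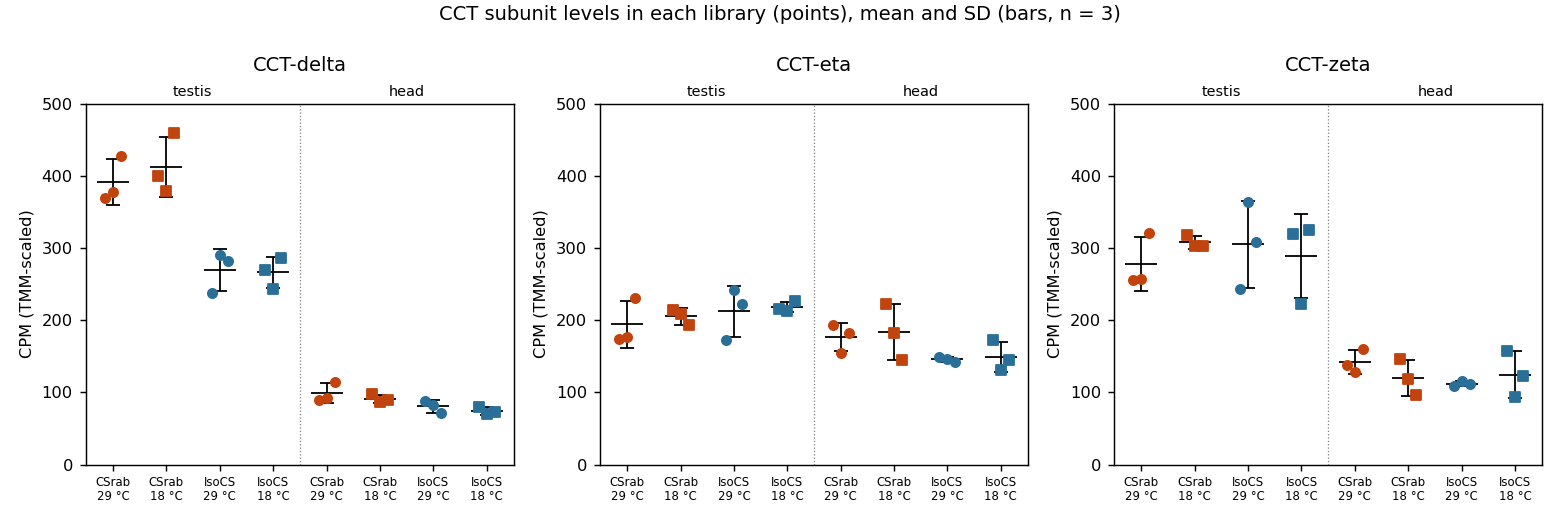
Level of each CCT subunit in every library, in CPM after joint TMM scaling, by tissue, strain and temperature; points are the 24 libraries and bars the group mean and SD (n = 3). CCT-delta forms 3 levels, at 369 to 459 CPM in CSrab testes, 237 to 290.5 CPM in IsoCS testes and 69.8 to 115 CPM in heads, while CCT-eta overlaps between tissues.

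CCT-delta is the subunit that, in mammalian CCT, is among those in contact with folding actin. Its level was 369, 378 and 427 CPM in the CSrab testes at 29 °C and 400.1, 379 and 459 CPM in those at 18 °C. In the IsoCS testes it was 237, 290.5 and 282 CPM at 29 °C and 270.1, 244 and 286 CPM at 18 °C. The lowest CSrab testis library lay above the highest IsoCS one. In the CSrab heads CCT-delta stood at 90.04, 91.7 and 115 CPM at 29 °C and at 97.2, 86.3 and 89.5 CPM at 18 °C. The IsoCS heads held 88.4, 82.97 and 71.1 CPM at 29 °C and 79.5, 69.8 and 73.4 CPM at 18 °C. Every testis library was above every head library. Ordered by mean, the groups ran from CSrab testes at 18 °C (413 CPM) and 29 °C (391 CPM) through IsoCS testes at 29 °C (269.9 CPM) and 18 °C (266 CPM) to the heads (98.9, 91.0, 80.8 and 74.2 CPM). Neighbours in this order overlapped except at the step between the testes of the strains and at the step to the heads.

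CCT-eta occupies another position of the same ring. It stood at 174, 177 and 231 CPM in the CSrab testes at 29 °C and at 215, 208 and 193 CPM in those at 18 °C. The IsoCS testes gave 173, 242 and 222 CPM at 29 °C and 216, 212 and 226 CPM at 18 °C. The testes of the strains spanned nearly the same range. The CSrab heads gave 193, 155 and 182 CPM at 29 °C and 223, 182 and 145 CPM at 18 °C, against 149, 146 and 143 CPM at 29 °C and 172, 132 and 144 CPM at 18 °C in the IsoCS heads. Every neighbour in the order of its 8 group means overlapped the next.

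CCT-zeta is a ring subunit that mammals encode by more than one gene, with one copy used mainly in the testis; the tables here carry one gene of that symbol. Its level was 255, 257 and 321 CPM in the CSrab testes at 29 °C and 318, 303 and 303 CPM in those at 18 °C. In the IsoCS testes it was 243, 364 and 309 CPM at 29 °C and 319, 223 and 325 CPM at 18 °C. The second IsoCS testis library at 18 °C had the lowest testis value, yet it remained above all heads. The CSrab heads had 139, 128 and 161 CPM at 29 °C and 146, 118 and 96.1 CPM at 18 °C, and the IsoCS heads had 108, 116 and 112 CPM at 29 °C and 157, 93.1 and 123 CPM at 18 °C. In the order of its group means, the only step without overlap was the one between testes and heads.

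Tissue was tested in one model of the 24 libraries, with edgeR's quasi-likelihood test and Benjamini-Hochberg adjustment over all genes tested. Averaged over strain and temperature, 3 of 3 subunits were higher in testis, while 87.2% of the 14334 genes tested differed between the tissues and 45.9% were higher in testis. CCT-delta rose 3.83-fold (log2 1.94 ± 0.069 SE, 95% interval of the fold 3.46 to 4.23, edgeR adjusted p = 1.62e-15). CCT-zeta rose 2.37-fold (log2 1.25 ± 0.103, edgeR adjusted p = 8.11e-10). CCT-eta rose 1.27-fold (log2 0.35 ± 0.082, edgeR adjusted p = 0.00065). The members' median log2 difference was 1.25, against 0.12 over all genes tested. Differences of this kind were common, and 24.8% of genes had a log2 difference above that of CCT-delta.

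The CCT-eta call depended on scaling. With upper-quartile scaling, which moved the median of all genes by -0.26 on the log2 scale, it was 0.0857 and no longer passed (edgeR adjusted p = 0.339); relative to that median it was 0.23 under TMM and 0.229 under upper-quartile scaling. Taken group by group, it passed in IsoCS at 29 °C (log2 0.54 ± 0.165, edgeR adjusted p = 0.00655) and at 18 °C (0.55 ± 0.165, edgeR adjusted p = 0.00606), where 72.8% and 73.2% of genes were called. It did not pass in CSrab at 29 °C (0.13, interval -0.21 to 0.48) or at 18 °C (0.16, interval -0.18 to 0.51), where 74.4% and 76.3% of genes were called. The difference between strains in this tissue effect did not itself pass (-0.40 ± 0.164 for CSrab minus IsoCS, edgeR adjusted p = 0.129). The IsoCS result at 18 °C was lost without the third IsoCS head library at 18 °C (0.423, edgeR adjusted p = 0.0521). CCT-delta and CCT-zeta passed in each of the 4 groups. Their log2 differences ran from 1.74 to 2.18 for CCT-delta and from 0.96 to 1.45 for CCT-zeta.

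**Figure D2:**
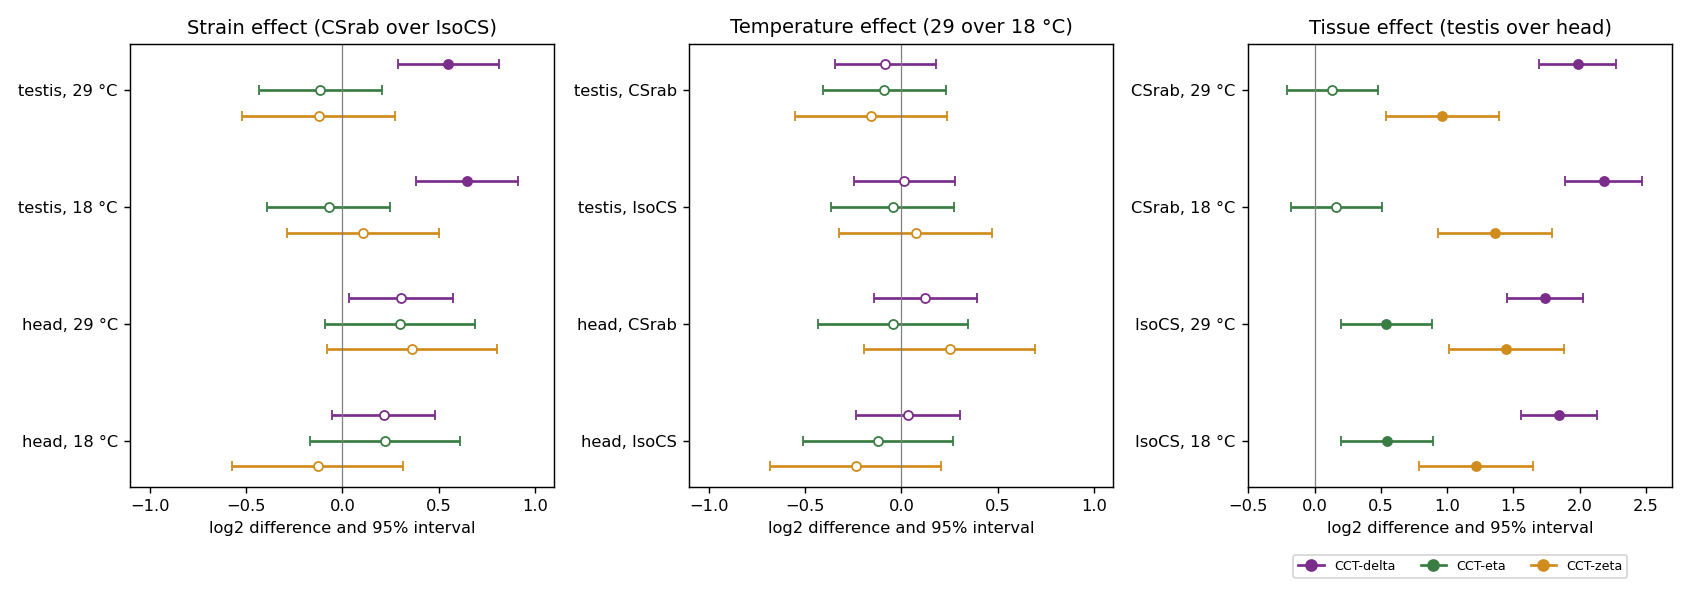
Log2 differences of the 3 subunits with 95% intervals, for strain (CSrab over IsoCS) at each temperature, temperature (29 °C over 18 °C) in each strain, and tissue (testis over head) in each group; filled points have an edgeR adjusted p under 0.05 and open points do not. CCT-delta in testis is the only filled point among the strain effects (0.55 at 29 °C and 0.65 at 18 °C), no temperature effect is filled, and all tissue effects are filled except CCT-eta in CSrab.

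The strain contrast compares flies that the submitters describe as isogenic except for the proto-Y. In testis, 1 of 3 subunits differed, and it was CCT-delta. It averaged 402 ± 34.9 CPM in CSrab testes and 268 ± 22.7 CPM in IsoCS testes (SD, n = 6 each), 1.51-fold higher in CSrab when averaged over temperatures (log2 0.60 ± 0.084 SE, 95% interval of the fold 1.33 to 1.72, edgeR adjusted p = 0.000617). All 6 CSrab testis libraries were above all 6 IsoCS ones. The test counts the 6 libraries of a strain as independent. Same-numbered testis libraries deviated together between temperatures (r of 0.156 to 0.313 in CSrab and 0.2 to 0.522 in IsoCS). A replicate block within strains was not fitted for the strain contrast. In this contrast 23.4% of the 13271 genes tested were called and 12.6% were called higher in CSrab, CCT-delta ranked 532 by p, and 28.6% of genes had a larger difference in either direction.

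CCT-delta passed at each temperature on its own. The fold was 1.46 at 29 °C (log2 0.55 ± 0.119, 95% interval of the fold 1.22 to 1.75, edgeR adjusted p = 0.0143, 10.9% of genes called). At 18 °C it was 1.57 (log2 0.65 ± 0.119, 95% interval of the fold 1.30 to 1.88, edgeR adjusted p = 0.00564, 12.7% of genes called). The call at 29 °C was lost when only the 2 groups compared were fitted (0.536, edgeR adjusted p = 0.124) and without the first IsoCS testis library at 29 °C (0.485, edgeR adjusted p = 0.0647). The call averaged over temperatures was kept without any one library, with log2 differences of 0.569 to 0.64.

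The other subunits showed no such difference in testis. CCT-eta averaged 199.7 ± 22.4 CPM in CSrab testes and 215 ± 23.3 CPM in IsoCS testes, with a fitted log2 difference of -0.09 and an interval of -0.32 to 0.13. CCT-zeta averaged 293 ± 29.6 CPM in CSrab testes and 297 ± 53.6 CPM in IsoCS testes, with a log2 difference of -0.01 and an interval of -0.29 to 0.27. Both intervals end below the lower bound of the CCT-delta interval, which was 0.41. Neither value passed the test (edgeR adjusted p = 0.554 and 0.974).

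Some of the 4 genes picked by symbol as neuronal also differed in the testis strain contrast. There 23.4% of the 13271 genes tested were called. Of the 4, para-like was lower in CSrab testes (log2 -1.03 ± 0.26, edgeR adjusted p = 0.0166), as was nAChRbeta3 (-0.79 ± 0.151, edgeR adjusted p = 0.00397). The other 2, pdf and MdRdl, were too low in testis to be tested there, at 0.0425 and 0.151 CPM on average. A sum of the 4 in testis therefore rests mainly on para-like and nAChRbeta3, and nAChRbeta3 did not pass between testis and head (edgeR adjusted p = 0.164). The summed level of the 4 was 111.6 to 161.9 CPM in CSrab testes and 166 to 369.6 CPM in IsoCS testes, and none of the 4 was at 0 in every library of a group. The yolk protein gene yp3, made mainly in fat body and ovary, had 12.3 to 24.7 CPM in CSrab testes and 10.9 to 97.5 CPM in IsoCS testes, and did not pass (log2 -0.65 ± 0.429, edgeR adjusted p = 0.306). The value of 97.5 CPM belongs to the first IsoCS testis library at 29 °C, and the other IsoCS testes had 10.9 to 27.9 CPM. Without that library the CCT-delta call at 29 °C was lost, as given above, and its difference averaged over temperatures was 0.57 (edgeR adjusted p = 0.00233). The part of these genes in the CCT-delta difference was not tested.

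In head, 0 of 3 subunits passed for strain in edgeR's test, averaged over temperatures, where 12.2% of 12347 genes were called. At an unadjusted p under 0.05 there was 1, CCT-delta, and the DESeq2 Wald test also called 1. CCT-delta averaged 94.9 ± 10.4 CPM in CSrab heads and 77.5 ± 7.35 CPM in IsoCS heads (SD, n = 6 each). Its log2 difference was 0.26 ± 0.085 (interval 0.07 to 0.45, edgeR adjusted p = 0.077), and DESeq2 gave 0.263 with an adjusted p of 0.021. The ranges of the strains overlapped only slightly, since the lowest CSrab head had 86.3 CPM and the highest IsoCS head 88.4 CPM. CCT-eta averaged 180.1 ± 27.7 CPM in CSrab heads and 148 ± 13.3 CPM in IsoCS heads, a log2 difference of 0.26 with an interval of -0.02 to 0.53. CCT-zeta averaged 131 ± 22.6 CPM in CSrab heads and 118 ± 21.6 CPM in IsoCS heads, a log2 difference of 0.12 with an interval of -0.20 to 0.43. Taken at each temperature, 0 of 3 passed at 29 °C (4.41% of genes called; 1 at an unadjusted p under 0.05) and 0 of 3 at 18 °C (3.27%; 0 at an unadjusted p under 0.05), and DESeq2 called 0 at each.

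Whether the strain difference itself differed between testis and head was tested in the joint model. None of the 3 passed in edgeR's test (0 of 3, with 11.2% of all genes called), although 2 had an unadjusted p under 0.05; DESeq2 called 0. For CCT-delta the log2 strain difference was 0.29 ± 0.133 larger in testis than in head (edgeR adjusted p = 0.169). For CCT-eta it was 0.40 below, at -0.40 ± 0.164 (edgeR adjusted p = 0.129), and this passed without the third CSrab head library at 18 °C (-0.499, edgeR adjusted p = 0.0399). The CCT-zeta value was -0.17 ± 0.202 (edgeR adjusted p = 0.674).

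Developmental temperature moved no subunit past the threshold. In testis, averaged over strains, 0 of 3 passed in edgeR's test against 21.3% of all genes. The log2 differences of 29 °C over 18 °C were -0.04 for CCT-delta (interval -0.22 to 0.15), -0.07 for CCT-eta (-0.29 to 0.16) and -0.04 for CCT-zeta (-0.32 to 0.24). In head 0 of 3 passed against 7.93% of all genes, with log2 differences of 0.08 for CCT-delta (-0.11 to 0.27), -0.08 for CCT-eta (-0.36 to 0.19) and 0.01 for CCT-zeta (-0.31 to 0.32). Within single strains 0 of 3 passed in CSrab testes (6.73% of genes called), IsoCS testes (10.4%), CSrab heads (0.283%) and IsoCS heads (0.697%). In each of these 6 contrasts 0 subunits had an unadjusted p under 0.05 and DESeq2 called 0.

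Nor did any subunit respond to temperature differently by strain or by tissue at this threshold. The strain-by-temperature interaction was called for 0 of 3 subunits in testis (0.249% of genes called) and for 0 of 3 in head (0.0243%), with 0 at an unadjusted p under 0.05 and 0 by DESeq2. In the authors' deposited table the adjusted p of this interaction was 0.933 for CCT-delta, 0.98 for CCT-eta and 0.886 for CCT-zeta in testis. The authors' deposited table for head gave 0.999, 0.999 and 0.993 in the same order of genes. The temperature effect differed between tissues for 0 of 3 (7.03% of genes called; 0 at an unadjusted p under 0.05 and 0 by DESeq2).

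The 2 other chaperones picked by symbol, hsp20 and HSP70, gave different values for temperature. Averaged over strains, the small heat shock protein gene hsp20 rose at 29 °C in testis (log2 0.96 ± 0.205, edgeR adjusted p = 0.00955) and in head (1.07 ± 0.168, edgeR adjusted p = 0.00835). Within single strains hsp20 passed only in IsoCS testes (edgeR adjusted p = 0.0458). It was 0.0995 in CSrab testes, 0.0618 in CSrab heads and 0.0946 in IsoCS heads. HSP70, a chaperone of nascent and unfolded chains, rose in head averaged over strains (0.58 ± 0.139, edgeR adjusted p = 0.0361). In neither strain alone did it pass in head (edgeR adjusted p = 0.16 in CSrab and 0.2 in IsoCS). In testis, averaged over strains, its value was 0.51 ± 0.177 (edgeR adjusted p = 0.066). Of these 2 genes, therefore, 1 passed in testis and 2 in head, all higher at 29 °C, beside 21.3% of all genes called in testis and 7.93% in head. Between strains, averaged over temperatures, hsp20 was lower in CSrab testes (-0.75 ± 0.204, edgeR adjusted p = 0.0232), the opposite direction to CCT-delta. HSP70 was -0.27 ± 0.177 (edgeR adjusted p = 0.31), and 23.4% of genes were called. At single temperatures hsp20 did not pass (edgeR adjusted p = 0.0958 at 29 °C and 0.167 at 18 °C). Between tissues HSP70 was lower in testis (-0.41 ± 0.13, edgeR adjusted p = 0.00709) and hsp20 was -0.25 ± 0.139 (edgeR adjusted p = 0.102), with 87.2% of genes called. Taken group by group, both passed only in CSrab at 29 °C (edgeR adjusted p = 0.0196 for HSP70 and 0.0346 for hsp20).

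Because one CCT ring needs all of its subunits, the balance among them was measured as the ratio of the counts of a pair of subunits within each library. Such a ratio does not depend on library scaling, and transcript length cancels when groups are compared; the ratio itself is of reads and gives neither molecules nor protein. Differences of mean log2 ratios were tested by two-sided exact permutation of labels within the strata of the other factors, with p adjusted over 15 tests. Ratios of other gene pairs were not computed, so how often such a ratio passes or separates groups is not known here. The plot of ratios shows all libraries.

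**Figure D3:**
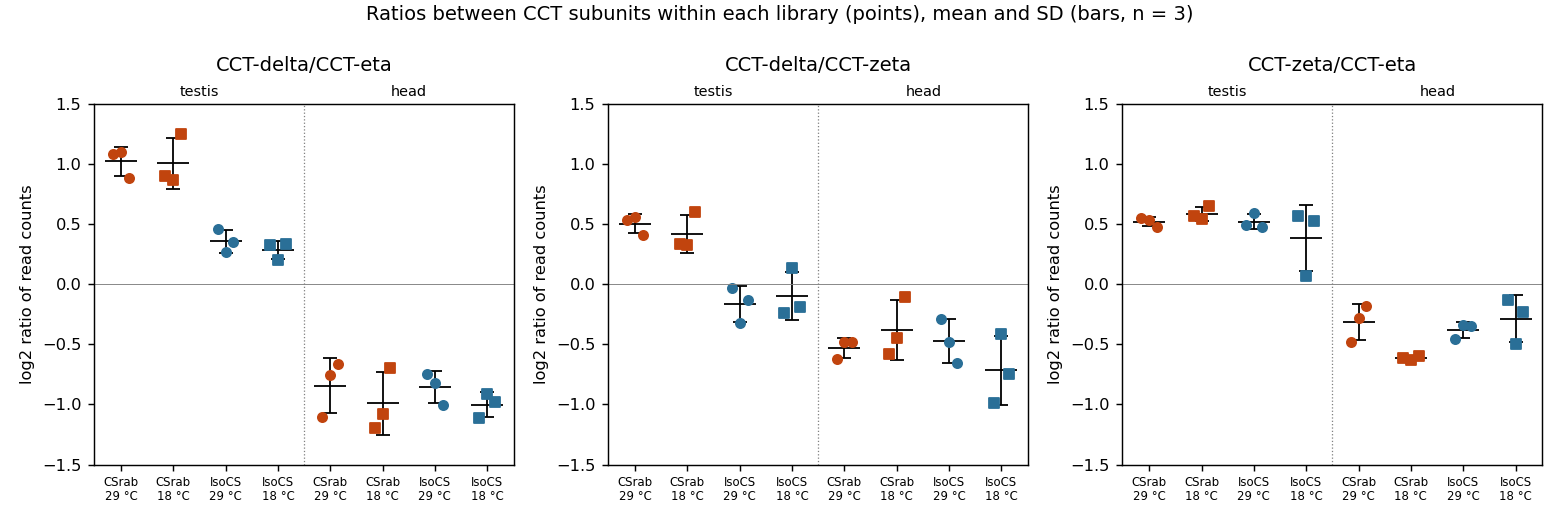
Log2 ratio of read counts for each pair of subunits in every library, by tissue, strain and temperature (circles 29 °C, squares 18 °C); bars are the group mean and SD (n = 3). CCT-delta/CCT-eta and CCT-delta/CCT-zeta are higher in all CSrab testes than in all IsoCS testes, while the strains overlap in head and for CCT-zeta/CCT-eta.

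The ratio of CCT-delta to CCT-eta separated the tissues and, in testis, the strains. The CCT-delta/CCT-eta ratio was 2.12, 2.13 and 1.85 in the CSrab testes at 29 °C and 1.86, 1.82 and 2.38 in those at 18 °C. In the IsoCS testes the ratio was 1.37, 1.20 and 1.27 at 29 °C and 1.25, 1.15 and 1.26 at 18 °C. The strains did not overlap in testis. In heads it was 0.466, 0.591 and 0.630 in CSrab at 29 °C, 0.437, 0.474 and 0.616 in CSrab at 18 °C, 0.595, 0.567 and 0.499 in IsoCS at 29 °C and 0.462, 0.530 and 0.508 in IsoCS at 18 °C. The heads of the strains overlapped, and all were below all testes.

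In testis the ratios that include CCT-delta differed by strain and the ratio that leaves it out did not pass. Of single genes, edgeR called 23.4% for strain in testis, averaged over temperatures. CCT-delta/CCT-eta was 1.61-fold higher in CSrab testes (log2 0.69; mean log2 ratios 1.01 ± 0.155 in CSrab and 0.32 ± 0.087 in IsoCS, SD, n = 6 each; exact permutation p = 0.005, adjusted p = 0.015). CCT-delta/CCT-zeta was 1.51-fold higher (log2 0.59; 0.46 ± 0.12 in CSrab and -0.13 ± 0.161 in IsoCS; exact permutation p = 0.005, adjusted p = 0.015). The value 0.005 is the smallest that the 400 regroupings allow. The regroupings treat the 6 libraries of a strain as independent, which the labels do not settle. CCT-zeta/CCT-eta had a log2 difference of 0.10 (0.55 ± 0.058 in CSrab and 0.45 ± 0.192 in IsoCS; exact permutation adjusted p = 0.506). With labels exchanged only between libraries of the same replicate number, the differences of 0.691 and 0.591 had an exact permutation p of 0.0312, the smallest that exchange allows, and no longer passed after adjustment (adjusted p = 0.0938 for each).

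In head 0 of the 3 ratios passed for strain in the exact permutation test, adjusted or not. The log2 differences were 0.01 for CCT-delta/CCT-eta, 0.14 for CCT-delta/CCT-zeta and -0.13 for CCT-zeta/CCT-eta, with adjusted p of 0.935, 0.525 and 0.493 by exact permutation. For temperature 0 of 6 ratio tests passed in testis or head; the log2 differences were 0.01 to 0.15 and the lowest exact permutation p was 0.17 (adjusted p = 0.425).

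As shares of the summed reads of the 3 genes, CCT-delta made up 45.0 ± 2.27% in CSrab testes and 34.5 ± 1.47% in IsoCS testes (SD, n = 6 each), against 23.5 ± 2.41% in CSrab heads and 22.7 ± 2.19% in IsoCS heads. CCT-eta made up 22.3 ± 1.29% in CSrab testes and 27.6 ± 1.80% in IsoCS testes, against 44.3 ± 3.20% in CSrab heads and 43.1 ± 1.00% in IsoCS heads. CCT-zeta made up 32.7 ± 1.13% in CSrab testes and 37.9 ± 2.74% in IsoCS testes, against 32.2 ± 2.27% in CSrab heads and 34.2 ± 2.73% in IsoCS heads. In testis the CCT-delta share was higher and the CCT-eta share lower than in head in both strains, with no overlap of their ranges. Over all libraries of a tissue the CCT-zeta share was 35.3 ± 3.35% in testis and 33.2 ± 2.63% in head (SD, n = 12 each).

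All 3 ratios differed between tissues, where edgeR called 87.2% of single genes. The 3 ratios are not independent, since each follows from the others. CCT-delta/CCT-eta was 3.01-fold higher in testis (log2 1.59; exact permutation adjusted p = 9.4e-05), with mean log2 ratios of 0.67 ± 0.38 in testis and -0.92 ± 0.181 in head (SD, n = 12 each). CCT-zeta/CCT-eta was 1.87-fold higher (log2 0.90; 0.50 ± 0.145 in testis and -0.40 ± 0.172 in head; exact permutation adjusted p = 9.4e-05). For these pairs the tissues did not overlap, and the unadjusted p of 1.25e-05 is the smallest that 160000 regroupings allow. CCT-delta/CCT-zeta was 1.61-fold higher (log2 0.69; 0.16 ± 0.337 in testis and -0.52 ± 0.223 in head; exact permutation adjusted p = 0.000125), and here the tissues overlapped.

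A test added after the ratios had been seen set the strain difference in a ratio in testis against that in head, exchanging strain labels within temperature in both tissues. Its regroupings assume no strain difference in either tissue, so its p is not exact for the question of equal strain differences in both. For CCT-delta/CCT-eta the strain difference was 0.69 in testis and 0.01 in head, a gap of 0.679 on the log2 scale (exact permutation p = 0.00491, adjusted over 6 tests p = 0.0295). Leaving out each library gave 0.614 to 0.752, and the adjusted p exceeded 0.05 without the first CSrab head library at 18 °C (0.627, exact permutation adjusted p = 0.0617), the first CSrab head at 29 °C (0.614, adjusted p = 0.0664) or the first IsoCS head at 29 °C (0.652, adjusted p = 0.0502). The gaps for CCT-delta/CCT-zeta (0.449) and CCT-zeta/CCT-eta (0.23) did not pass (exact permutation adjusted p = 0.17 for each).

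The subunits were also compared for how they varied from library to library within a tissue. Within a library the genes share the same depth and the same scaling factor, and an error in that factor would move them together. The coefficients therefore describe joint variation in scaled levels, and 8 relations were computed. In testis CCT-zeta and CCT-eta varied together over 12 libraries (Pearson r = 0.726, permutation p = 0.00767, adjusted p = 0.0205; Spearman rho = 0.86, permutation p = 0.0006), and without the 2 libraries farthest from the median of CCT-zeta r was 0.946. Within strains r was 0.934 in CSrab testes (exact permutation p = 0.00278, adjusted over 8 such relations p = 0.0222) and 0.719 in IsoCS testes (exact permutation adjusted p = 0.184), over 6 libraries each. In head the same pair gave r = 0.752 (permutation p = 0.00478, adjusted p = 0.0191; rho = 0.776, permutation p = 0.0043), and 0.807 without the 2 farthest; within strains r was 0.705 in CSrab heads and 0.94 in IsoCS heads (exact permutation adjusted p = 0.184 and 0.0944). The within-strain values for pooled pairs were added after seeing the data. The plot of paired levels shows these points.

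**Figure D4:**
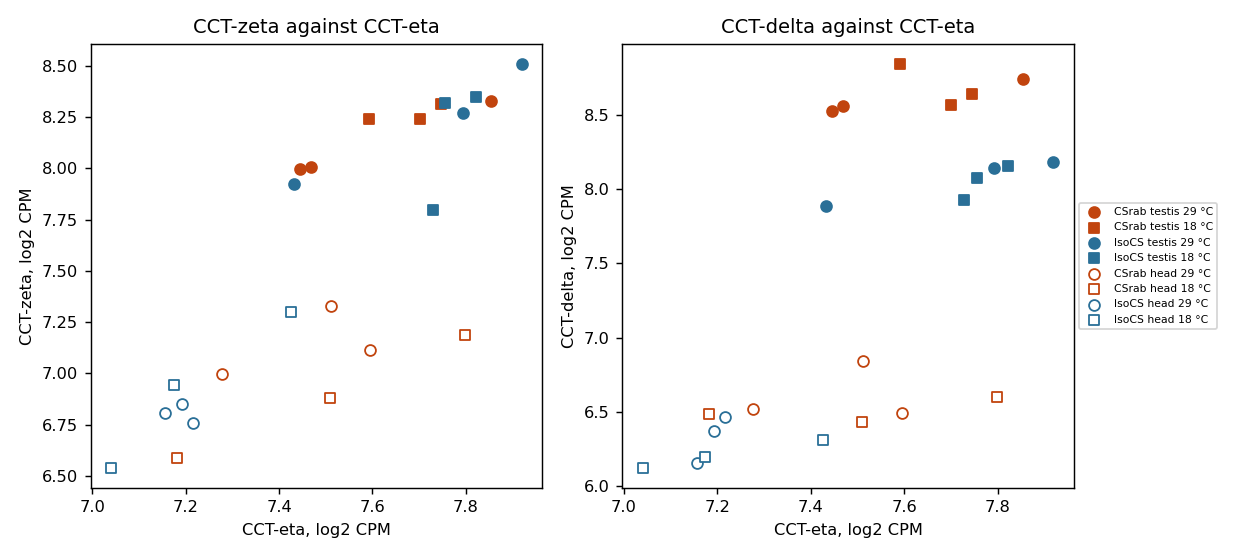
Levels of pairs of subunits in each library, in log2 CPM after joint TMM scaling; filled points are testes and open points heads, colours are strains, circles are 29 °C and squares 18 °C. CCT-zeta and CCT-eta follow each other within each tissue (r = 0.726 in testis and 0.752 in head), while the CSrab and IsoCS testes separate along CCT-delta.

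CCT-delta in testis fell into separate clusters by strain, so its relations were computed within each strain over 6 libraries. In IsoCS testes CCT-delta followed CCT-eta (r = 0.859, exact permutation p = 0.00139, the smallest of 720 orderings, adjusted p = 0.0111; rho = 1.00, permutation p = 0.00278; r = 0.881 without the 2 farthest). By Pearson r it also followed CCT-zeta there (r = 0.939, exact permutation p = 0.0181, adjusted p = 0.0348). The rank correlation did not pass after adjustment (rho = 0.886, permutation p = 0.0333, adjusted p = 0.0533). Without the 2 farthest, which leaves 4 libraries, r was 0.623. In CSrab testes the coefficients were 0.433 with CCT-eta (rho = 0.657) and 0.626 with CCT-zeta (rho = 0.829), with exact permutation adjusted p of 0.375 and 0.192 for r. In head CCT-delta gave r = 0.649 with CCT-eta over 12 libraries (permutation p = 0.0218, adjusted p = 0.0348; rho = 0.79, permutation p = 0.00313; 0.59 without the 2 farthest) and r = 0.55 with CCT-zeta (permutation adjusted p = 0.0839; rho = 0.559), which was 0.118 without the 2 farthest. Neither pair passed within a strain in head: with CCT-eta r was 0.258 in CSrab and 0.498 in IsoCS (exact permutation adjusted p = 0.646 and 0.431), and with CCT-zeta 0.723 in CSrab and 0.263 in IsoCS (exact permutation adjusted p = 0.184 and 0.646). The pooled coefficients of CCT-delta in head include the difference between strain means.

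Set against the rest of the tables over the 24 libraries, CCT-eta and CCT-zeta were among each other's nearest genes. The place of CCT-delta depended on whether strain means were removed. Likeness was the Pearson r of log2 CPM over the 24 libraries after subtracting tissue means, for genes with at least 5 CPM on average in each tissue. For CCT-zeta, CCT-eta ranked 3 of 7578 genes (r = 0.741), and for CCT-eta, CCT-zeta ranked 6. Within single tissues these ranks were lower. For CCT-zeta, CCT-eta ranked 46 in head and 18 in testis, and for CCT-eta, CCT-zeta ranked 117 in head and 106 in testis. For CCT-delta, CCT-zeta ranked 1298 (r = 0.371) and CCT-eta 2220 (r = 0.229), beside a median r over all genes of 0.0268. From the other side, CCT-delta ranked 415 for CCT-zeta and 1837 for CCT-eta. These values keep the strain differences, including that of CCT-delta in testis. With the mean of each strain in each tissue subtracted instead, an alternative added after seeing the data, CCT-zeta ranked 43 for CCT-delta (r = 0.633) and CCT-eta 352 (r = 0.472). CCT-delta then ranked 31 for CCT-zeta and 554 for CCT-eta, and CCT-eta and CCT-zeta had r = 0.764, with ranks of 2 for CCT-zeta and 9 for CCT-eta. With tissue means subtracted, the 5 genes with the highest mean r to the 3 subunits were LOC101898030 (0.646), LOC101887680 (0.64), LOC101887970 (0.611), LOC101890328 (0.598) and LOC101898857 (0.579). Of these, LOC101887680 was closest to CCT-delta (r = 0.822) and LOC101887970 to CCT-eta (0.844), and LOC101898030 was closest to CCT-zeta (0.779). The deposited tables place CCT-delta on element B, CCT-eta on element E and CCT-zeta on element A, the Muller elements being the chromosome arms that flies share, so the 3 genes are not neighbours.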

How the data were processed

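Tissue was homogenised in TRIzol, RNA was purified on columns, and stranded mRNA libraries were sequenced, per the labels' protocols. For each tissue the authors deposited a table of unnormalized read counts per gene, which also lists an adjusted p-value for the strain-by-temperature interaction. The submitters' processing notes name HISAT2, SAMtools, HTSeq and DESeq2; their roles and versions, the genome build and the treatment of reads shared by similar genes are not given in the sources used here. All 24 count columns were mapped to libraries, and 0 per-sample columns were left unused. The RefSeq gene table held 12947 of the 14882 gene identifiers in the tables, the 3 subunits included, and its assembly is not known to be that of the counts, so no coordinates are given. Sequences and transcript lengths were not used here.

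Counts were fitted by edgeR 4.0.16 (R 4.3.3, limma 3.58.1) with 1 coefficient per group, over the 12 libraries of a tissue or, for comparisons between tissues, over all 24. Genes were kept by filterByExpr (minimum count 10, minimum total 15), libraries were scaled by TMM, and the quasi-likelihood test was used with Benjamini-Hochberg adjustment over all genes tested, a gene being called under 0.05. Intervals are at 95%. Strain effects are CSrab over IsoCS and temperature effects 29 °C over 18 °C. Count ratios were tested by exact permutation. Log2 CPM used a prior count of 2, except in the relations between subunits and the plot of paired levels, which used none. The fitting steps were tested on simulated data. Alternatives were other scalings and filters, removal of the 10 most abundant genes, equal depth, DESeq2 1.42.0, each library left out, models restricted to the groups compared, and the replicate number as a block.

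Named genes were the 3 subunits, other chaperones, and the 5 genes most like the subunits. Other CCT subunits, prefoldins, tubulins and actins had been planned by product name, but the tables give symbols only, so the other chaperones are hsp20 and HSP70 and the neuronal genes were picked by symbol with the files open. The members and lists were chosen with earlier results of these data known. P-values measure the spread between labelled biological replicates, and the labels do not say what the replicate numbers share. Strain contrasts averaged over temperatures count same-numbered libraries of a strain as independent. Libraries of the same number deviated together (every r over 0.1) between temperatures in CSrab heads (0.261 to 0.552), CSrab testes (0.156 to 0.313) and IsoCS testes (0.2 to 0.522), but not in IsoCS heads (-0.14 to 0.365), nor for all 3 numbers between strains or between tissues.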

Additional observations from a re-analysis of the deposited data

Results flagged for a closer look

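The strain effect on the log2 ratio of CCT-delta to CCT-eta counts differed between tissues by 0.679, being 0.69 in testis and 0.01 in head. In head each of these genes had a log2 strain difference of 0.26, and neither passed edgeR's test there. For testis minus head, the strain difference was 0.29 for CCT-delta and -0.40 for CCT-eta, and neither passed (edgeR adjusted p = 0.169 and 0.129). What singled out the ratio was the exact permutation test of the gap of 0.679 (p = 0.00491, adjusted over 6 tests p = 0.0295), which was added after the ratios had been seen. The regroupings of that test assume no strain difference in either tissue, so its p is not exact for equal strain differences in both.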

How the results depend on the processing

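The count of subunits called for strain in head, averaged over temperatures, was 1 with the DESeq2 Wald test instead of 0. The count for strain in testis at 29 °C was 0 instead of 1 when only the groups compared were fitted, and it ran from 0 to 1 with libraries left out in turn. With upper-quartile scaling 2 instead of 3 subunits were called for testis over head, averaged over groups and in IsoCS at 29 °C and 18 °C; the IsoCS count at 18 °C ran from 2 to 3 with libraries left out. The count of strain effects that differ between tissues ran from 0 to 1 with libraries left out, and the gap of 0.679 in the CCT-delta/CCT-eta ratio ran from 0.614 to 0.752. With the replicate block, 0 instead of 2 subunit ratios passed for strain in testis (adjusted p = 0.0938 for each, from the smallest p the block allows); the replicate numbers are not shown to pair the strains. The replicate block changed no count of called subunits for temperature, strain in either tissue, or tissue.

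Several values that did not pass changed sign. CCT-zeta for strain in testis was 0.00457 with no filter and -0.0846 to 0.0789 with libraries left out (-0.0467 to 0.201 at 18 °C and -0.243 to 0.0426 at 29 °C), and CCT-eta for strain in testis at 29 °C was -0.251 to 0.0117. With upper-quartile scaling CCT-eta for testis over head was -0.116 in CSrab at 29 °C and -0.068 at 18 °C. That scaling moved the median of all genes by -0.246 and -0.227 in these contrasts, and relative to the median CCT-eta was 0.0436 and 0.0636, against 0.0482 and 0.0678 under TMM. With libraries left out it was -0.0546 to 0.198 and -0.0304 to 0.301; in IsoCS, upper-quartile scaling ended its calls at 29 °C (0.294, edgeR adjusted p = 0.118) and 18 °C (0.233, edgeR adjusted p = 0.214). For temperature with libraries left out, CCT-eta in head was -0.155 to 0.0145, CCT-zeta in head -0.0689 to 0.104, CCT-delta in testis -0.0658 to 0.042, CCT-eta in testis -0.111 to 0.0332 and CCT-zeta in testis -0.121 to 0.0635. Among ratios, CCT-delta/CCT-eta for strain in head was -0.0603 to 0.0777, and for temperature CCT-delta/CCT-zeta was -0.0217 to 0.12 in head and -0.0263 to 0.0665 in testis, and CCT-zeta/CCT-eta in testis -0.045 to 0.0784. The causes of the changes with libraries left out were not tested. The lowest count of a subunit in any library was 1235.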
